A study of Mus musculus with 12 samples.

Results

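Sphere cells at passage 5 were set against every other group of the study, to find genes whose level there lay outside the whole range of the fibroblast, later sphere and stem cell arrays. The 3 passage 5 arrays (P5) were contrasted with the mean of the 3 other group means over all 9343 genes tested, and a gene was kept if its difference passed the test and all 3 passage 5 arrays lay above, or all below, all 9 others. This kept 310 genes (3.32%), 277 above (2.96%) and 33 below (0.353%). A gene that moved steadily between the fibroblast and the stem cell level could not meet this rule.

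RNA from mouse cells of 4 groups was hybridised to 12 bead arrays, 3 per group. Passage 5 and passage 15 spheres were converted sphere cells of strain FVB/N, which the labels trace to fibroblasts and the series title to a medium with AlbuMAX I, a lipid-rich serum albumin. Arrays labelled MEF held primary embryonic fibroblasts of the same strain (PMEF_NL), made resistant to neomycin. MES were J11 embryonic stem cells of strain 129/Sv, the control of the study, so a difference from MES is also one between strains. The labels name no separate cultures, so every p-value measures only the spread between arrays, which may be technical.

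Primitive endoderm is the extraembryonic layer that forms beside the pluripotent epiblast in the blastocyst, under fibroblast growth factor signalling and the transcription factor GATA6. It gives rise to parietal endoderm, which secretes a thick basement membrane of laminin and type IV collagen, and to visceral endoderm, an absorptive layer that takes up maternal proteins by endocytosis and secretes transport proteins. The same factors, Gata4, Gata6 and Sox17, also act later in the gut and other endodermal organs. The genes that set passage 5 apart upward included many of these.

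Values are neqc-normalized log2 intensities, and are given for replicates 1, 2 and 3 in that order. Detected probes numbered 18190 to 19060 on passage 5 arrays, 17910 to 18469 on arrays labelled MEF, 15761 to 17234 at passage 15 and 16728 to 17115 in MES. Replicates 1 and 2 of passage 5 and MEF shared a chip and their replicates 3 another, whereas all passage 15 and MES arrays were on a chip of their own. Passage 5 and chip therefore cannot be told apart against passage 15 and MES, and against MEF they can. All 6 tested embryonic stem cell markers were above background on all 3 arrays of every group, also on those labelled MEF, so that group is not taken as a pure fibroblast level. In these bulk samples, more cells of a type and more RNA per cell cannot be told apart.

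Called here is a gene with a Benjamini-Hochberg adjusted p under 0.05 over all 9343 genes in limma and a difference of at least 1 on the log2 scale, which is 2-fold. At passage 5, 448 genes were called higher than the mean of the other groups (4.8% of all genes) and 161 lower (1.72%). Called or not, 818 genes had all passage 5 arrays above all 9 others (8.76%) and 377 had them below (4.04%). Both conditions together gave the 277 genes above (2.96%) and the 33 below (0.353%). Asking for a call against each of MEF, passage 15 and MES left 111 higher (1.19%), of which 110 were also above all arrays, and 3 lower (0.0321%). The lower ones were Itm2a, Pmepa1 and Snurf, of which Snurf was not below all arrays and was not called without passage 5 replicate 3 (−0.90). Taken singly, these comparisons called 4.86% of all genes higher and 6.98% lower than MEF, 10.3% higher and 6.73% lower than passage 15, and 9.96% higher and 4.69% lower than MES.

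The balance of higher and lower calls depended on how arrays were scaled. Of all called genes, 73.6% were higher with quantile normalization, 98.7% with median scaling and 32% with scaling on the median of the tested genes, an alternative added after the data were seen. The median difference over all genes was −0.03, 0.52 and −0.21 in these settings. In the authors' deposited normalized values, 177 genes were called and above and 8 called and below. Under the 2 other scalings the genes called and above numbered 1300 and 208, and those called and below 4 and 284, so the number below depended on the scaling strongly.

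The same rule was applied to each of the other groups. At passage 5 it kept 277 genes above and 33 below (3.32% of all genes), against 773 and 427 on arrays labelled MEF (12.8%), 395 and 337 at passage 15 (7.83%) and 168 and 180 in MES (3.72%). These counts hold for quantile normalization, and the other groups were not counted under other scalings.

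For the genes above, the median level on the passage 5 arrays was 8.01, 8.13 and 8.42, against 6.90, 6.73 and 6.59 on arrays labelled MEF, 6.13, 6.40 and 6.63 at passage 15 and 6.42, 6.14 and 6.29 in MES. Their median difference was 1.36 on the log2 scale, 56 reached 4-fold and 5 reached 16-fold. MEF was the nearest other group for 167 of them, passage 15 for 80 and MES for 30. For 25 genes no other array was above background. Without the MEF group, a setting added after the data were seen, 784 genes were called and above and 373 called and below, and these held 256 of the 277 and 24 of the 33.

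Each of the 277 genes was also higher than MEF within the shared chips, since the rule itself fixes that sign. The sizes are a description: the median difference from MEF was 0.97 on chip 2, with 2 arrays each, and 1.37 on chip 3, with 1 array each. It was larger on chip 3 for 230 genes, and passage 5 replicate 3 was the highest array for 246. With chip as a block in the limma fit of these 6 arrays, 150 of the 277 were called higher than MEF and 12 of the 33 were called lower. These are arrays that the rule used to choose the genes, so the counts describe the members and nothing is read from them. The part of chip and of replicate 3 in these sizes was not tested.

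**Figure D1:**
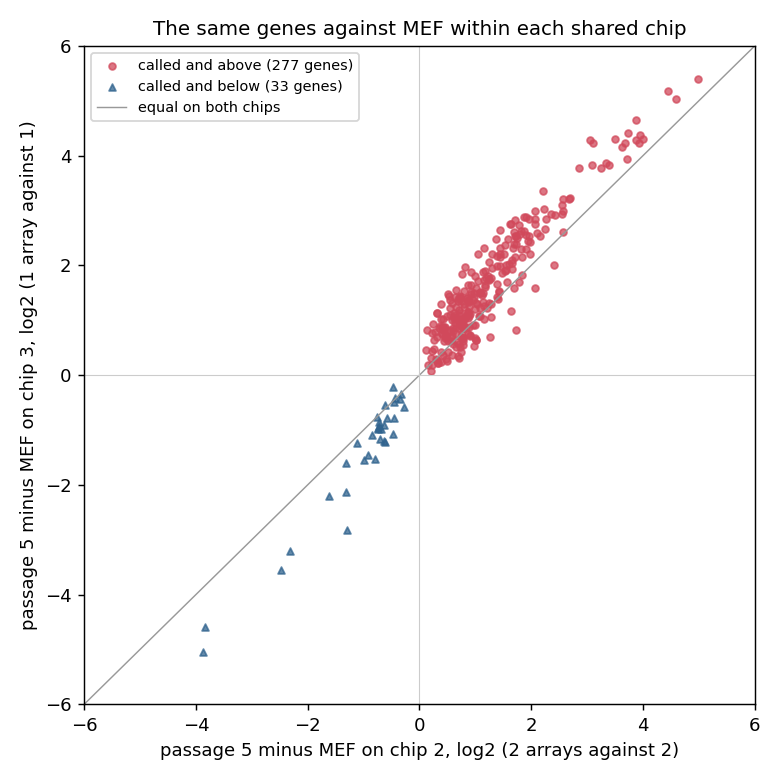
Each point is a gene called and apart from all other arrays. The horizontal axis gives its passage 5 minus MEF difference on chip 2 (2 arrays against 2) and the vertical axis that on chip 3 (1 against 1), both in log2 intensity, with red circles for the 277 genes above and blue triangles for the 33 below. Of the 277, 230 lie above the line of equal differences, so their difference was larger on chip 3.

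Farthest above all other arrays were 2 gastrokines, a granule proteoglycan and 2 transcription factors. The margin is the log2 distance between the lowest passage 5 array and the highest of the 9 others. Where a gene was above background on no array of a group, its fold is a bound. In it, each array of that group stands no lower than the weakest signal above background on that array. Calls rest on the measured values, so the bound of a called gene can be under 2-fold. Gkn1, gastrokine 1, a protein secreted by the mucous cells of the stomach, had log2 intensities of 9.45, 9.66 and 10.11 at passage 5, against 5.27, 4.95 and 4.94 on arrays labelled MEF, 4.45, 4.60 and 4.58 at passage 15 and 5.08, 4.99 and 5.01 in MES. Gkn2, gastrokine 2, which lies next to Gkn1 on chromosome 6, had log2 intensities of 8.22, 8.73 and 8.90 at passage 5, against 4.58, 4.46 and 4.52 on arrays labelled MEF, 4.40, 4.45 and 4.61 at passage 15 and 4.59, 4.74 and 4.44 in MES. Both were near background outside passage 5: Gkn1 was above it on 1 other array and Gkn2 on none. Gkn1 was at least 24.8-fold higher (adjusted p = 6.31e-11) and Gkn2 at least 11.6-fold higher (adjusted p = 3.77e-10).

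Srgn, serglycin, a proteoglycan of secretory granules that is abundant in parietal endoderm, had log2 intensities of 10.89, 10.99 and 11.28 at passage 5, against 6.04, 5.86 and 5.89 on arrays labelled MEF, 6.36, 6.54 and 6.83 at passage 15 and 5.58, 5.59 and 5.60 in MES. The difference was 5.02 on the log2 scale (SE 0.12, adjusted p = 2.05e-11), and its other probe gave 3.52. Foxq1, a forkhead transcription factor, had log2 intensities of 10.98, 11.30 and 11.57 at passage 5, against 6.60, 6.51 and 6.54 on arrays labelled MEF, 7.07, 7.30 and 7.44 at passage 15 and 6.29, 6.20 and 6.01 in MES. The difference was 4.62 on the log2 scale (SE 0.13, adjusted p = 6.31e-11). In both genes every array was above background, and the margins were 4.06 and 3.54.

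Klb, beta-Klotho, the co-receptor that lets endocrine fibroblast growth factors bind their receptors, had log2 intensities of 8.50, 8.77 and 8.94 at passage 5, against 4.79, 4.74 and 4.66 on arrays labelled MEF, 5.46, 5.14 and 5.13 at passage 15 and 5.00, 4.64 and 5.18 in MES. It was at least 12.8-fold higher (adjusted p = 6.31e-10). Pga5, a pepsinogen, differed by 4.18 on the log2 scale (SE 0.18, adjusted p = 6.09e-09), and Nostrin, an adaptor that binds endothelial nitric oxide synthase, by 3.82 on the log2 scale (SE 0.16, adjusted p = 4.63e-09). Clu, the secreted chaperone clusterin, differed by 3.46 on the log2 scale (SE 0.25, adjusted p = 7.42e-07). Pyy, the gut hormone peptide YY, was at least 9.4-fold higher (adjusted p = 5.92e-09). Hs3st1, which sulphates heparan sulphate, was at least 12.1-fold higher (adjusted p = 6.00e-10) and Car4, a membrane-bound carbonic anhydrase, at least 4.64-fold higher (adjusted p = 5.97e-08). Clic6, of the chloride intracellular channel family, was at least 9.99-fold higher (adjusted p = 1.04e-07), and Nxf7, of the nuclear RNA export factor family, at least 9.9-fold higher (adjusted p = 1.67e-09). In all 14 genes of this group the 3 passage 5 arrays lay close to each other and far from the rest.

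**Figure D2:**
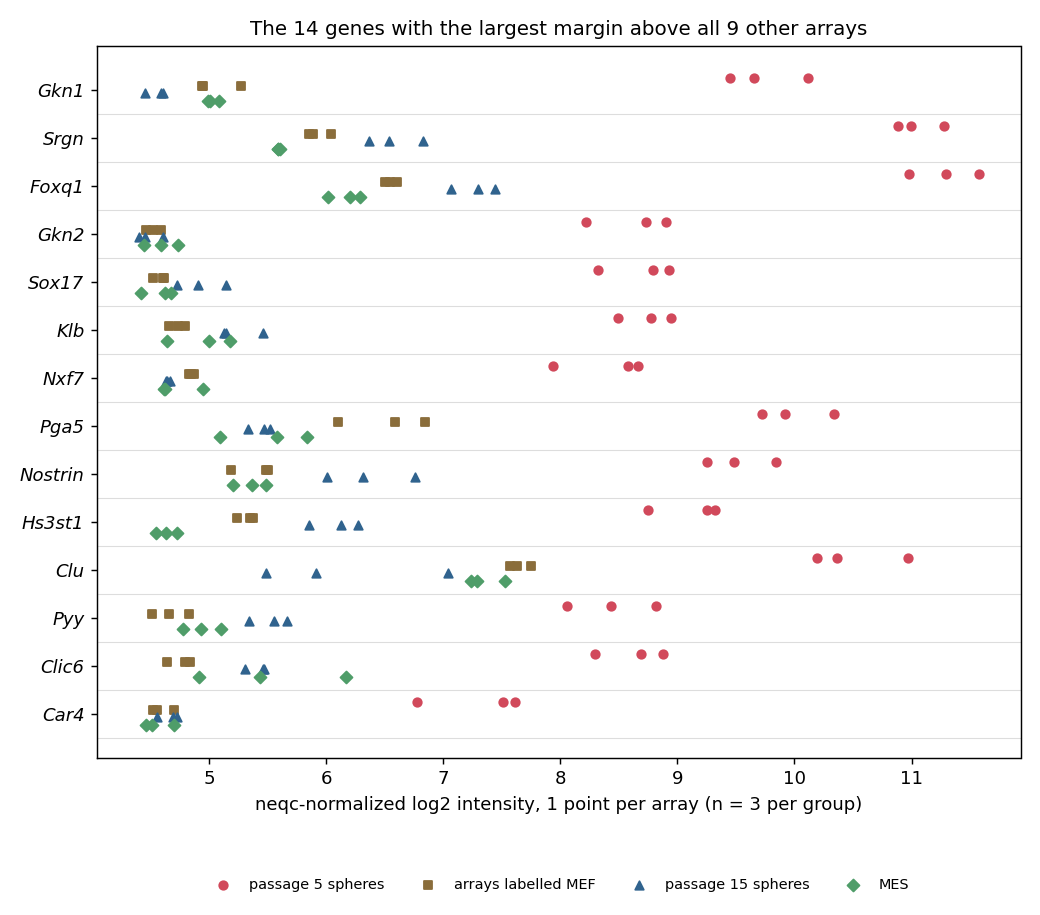
Each row is one of the 14 genes with the largest margin above all other arrays and each point is an array, on a horizontal axis of normalized log2 intensity, with passage 5 as red circles, MEF as brown squares, passage 15 as blue triangles and MES as green diamonds. The passage 5 points stand to the right of all others in every row, from a margin of 4.18 for Gkn1 to 2.05 for Car4.

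The promoters of some of these genes are shown because GATA factors were among the genes above. GATA factors bind short sites, searched here as AGATAA or TGATAA, together with AGATAG or TGATAG, on both strands. The windows run from 250 bases before to 50 after the transcription start, and come from RefSeq (build GRCm38.p6). Capitals mark the matches, and the genes were picked for display after the matches were seen. Gkn1 lies at chr6:87350866-87351165 (minus strand), Gkn2 at chr6:87373115-87373414 (plus), Klb at chr5:65348161-65348460 (plus) and Dab2, an endocytic adaptor described below with the visceral endoderm genes, at chr15:6299539-6299838 (plus, the first of its 2 windows).
Gkn1: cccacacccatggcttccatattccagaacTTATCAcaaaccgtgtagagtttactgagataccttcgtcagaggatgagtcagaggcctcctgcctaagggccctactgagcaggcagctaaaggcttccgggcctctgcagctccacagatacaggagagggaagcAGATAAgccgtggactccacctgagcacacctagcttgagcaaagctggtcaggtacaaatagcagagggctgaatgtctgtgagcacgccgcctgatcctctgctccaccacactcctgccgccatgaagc
Gkn2: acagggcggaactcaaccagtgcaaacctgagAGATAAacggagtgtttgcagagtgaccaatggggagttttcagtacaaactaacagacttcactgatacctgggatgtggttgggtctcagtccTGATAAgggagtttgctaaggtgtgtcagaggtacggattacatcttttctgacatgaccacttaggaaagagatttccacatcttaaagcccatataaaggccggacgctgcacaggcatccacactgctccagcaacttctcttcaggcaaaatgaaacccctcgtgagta
Klb: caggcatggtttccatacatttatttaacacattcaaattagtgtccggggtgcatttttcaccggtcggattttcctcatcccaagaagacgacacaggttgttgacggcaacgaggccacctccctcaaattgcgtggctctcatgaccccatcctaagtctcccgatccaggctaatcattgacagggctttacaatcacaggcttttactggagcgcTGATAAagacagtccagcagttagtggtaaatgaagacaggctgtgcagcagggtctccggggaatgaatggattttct
Dab2: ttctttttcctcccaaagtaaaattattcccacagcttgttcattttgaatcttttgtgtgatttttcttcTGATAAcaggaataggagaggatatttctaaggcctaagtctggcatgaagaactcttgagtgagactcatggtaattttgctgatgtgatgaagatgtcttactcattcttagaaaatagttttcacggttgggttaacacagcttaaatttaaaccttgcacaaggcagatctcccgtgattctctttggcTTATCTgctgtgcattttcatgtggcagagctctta
Gkn1, Gkn2 and Dab2 held 2 matches each and Klb 1. Across the genes called and above, 22.3% of 296 windows from 218 genes held a match, against 19.5% of 9770 windows from all genes tested with a window and 29.8% of all 32851 windows. A match is a description of the letters and not a site.

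Most tested transcription factors of primitive endoderm were higher at passage 5. Of 14 tested, 8 were called higher and 0 lower (1 at an unadjusted p under 0.05 in limma), and all 8 lay above all other arrays, which is 57.1% of the list beside 2.96% of all genes. In this and later lists, some members, such as Sox17, passed the detection filter through passage 5 alone. The filter favoured their place among the genes above. The list median was 1.31 on the log2 scale, against −0.03 over all genes, and its median difference from MEF was 1.34 on chip 2 and 1.77 on chip 3. Gata6, the factor at the head of this lineage, had log2 intensities of 11.02, 11.33 and 11.35 at passage 5, against 7.36, 7.15 and 7.12 on arrays labelled MEF, 8.77, 9.03 and 9.24 at passage 15 and 9.56, 9.48 and 9.69 in MES. Its difference was 2.64 on the log2 scale (SE 0.12, adjusted p = 8.17e-09). MES stood above passage 15, and arrays labelled MEF were lowest.

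Gata4, which acts with Gata6, had log2 intensities of 8.67, 8.88 and 9.12 at passage 5, against 6.32, 5.84 and 5.90 on arrays labelled MEF, 6.45, 5.85 and 6.75 at passage 15 and 5.19, 5.79 and 5.74 in MES. The difference was 2.91 on the log2 scale (SE 0.19, adjusted p = 3.12e-07), and its other probe gave 1.77. Sox17, an HMG-box factor of endoderm, had log2 intensities of 8.32, 8.79 and 8.93 at passage 5, against 4.61, 4.52 and 4.62 on arrays labelled MEF, 4.90, 4.73 and 5.15 at passage 15 and 4.42, 4.67 and 4.62 in MES. It was above background on no other array and was at least 12.1-fold higher (adjusted p = 4.21e-10). Sox7, a close relative of Sox17, had log2 intensities of 8.01, 8.56 and 8.68 at passage 5, against 5.19, 4.69 and 4.82 on arrays labelled MEF, 5.90, 5.99 and 5.30 at passage 15 and 5.85, 5.90 and 5.59 in MES, a difference of 2.95 on the log2 scale (SE 0.18, adjusted p = 1.16e-07). The margins of the 3 were 1.91, 3.18 and 2.02 log2 units, so none overlapped another group.

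Pdgfra, the receptor tyrosine kinase that marks primitive endoderm and also many mesenchymal cells, had log2 intensities of 9.47, 9.70 and 10.03 at passage 5, against 7.73, 7.89 and 8.32 on arrays labelled MEF, 6.25, 6.23 and 6.45 at passage 15 and 6.08, 6.31 and 5.61 in MES. The difference was 2.97 on the log2 scale (SE 0.17, adjusted p = 5.97e-08), and arrays labelled MEF were the nearest group. Hnf4a, a nuclear receptor of visceral endoderm and liver, differed by 1.35 on the log2 scale (SE 0.20, adjusted p = 2.02e-04). Sall4, a zinc finger factor of both stem cells and primitive endoderm, differed by 1.27 on the log2 scale (SE 0.15, adjusted p = 3.81e-05), but its other probes gave −0.40 and −0.14. Foxa2, which later marks definitive endoderm, was above all arrays, with a measured difference of 0.80, but was not called, being under 2-fold.

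**Figure D3:**
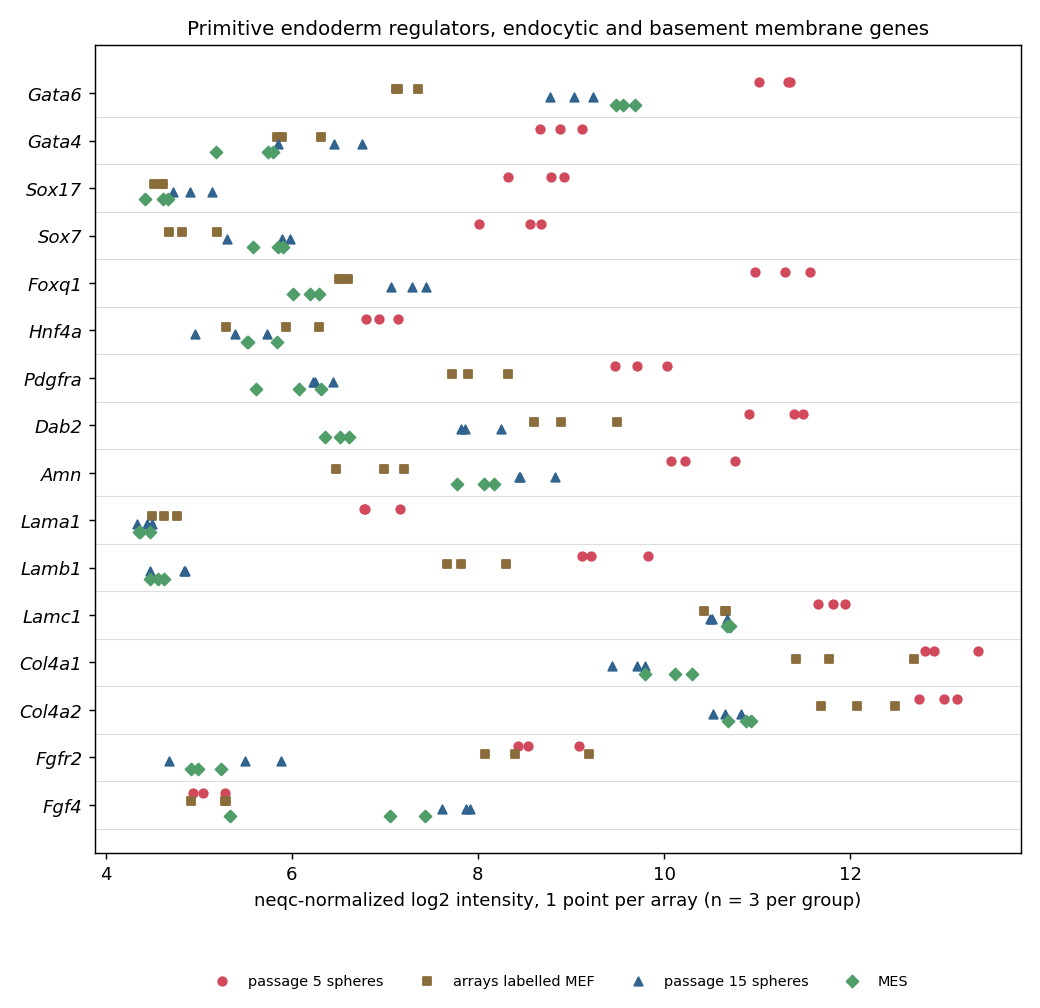
Each row is a gene and each point is an array, on a horizontal axis of normalized log2 intensity, with passage 5 as red circles, MEF as brown squares, passage 15 as blue triangles and MES as green diamonds. In the first 14 rows, from Gata6 to Col4a2, the 3 passage 5 points lie to the right of all others. In Fgfr2 they lie among those of MEF, and in Fgf4 they lie at the left with MEF.

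Most tested products of parietal endoderm were higher as well. Of 18 tested, 12 were called higher and 0 lower (1 at an unadjusted p under 0.05), and 9 lay above all other arrays (50% beside 2.96% of all genes). The list median was 1.48, or 1.43 with bounds in place of unmeasured folds. Against MEF within chips it was 0.83 on chip 2 and 0.69 on chip 3. Basement membrane genes, of which 21 were tested and several belong to both lists, were called higher in 11, lower in 0 (2 at an unadjusted p under 0.05), and above all arrays in 8 (38.1%), with a median of 1.05. Against MEF that median was 0.20 on chip 2 and 0.26 on chip 3.

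The 3 chains of laminin-111, the first laminin of the embryo, were all above all other arrays. Lama1 had log2 intensities of 6.78, 6.79 and 7.16 at passage 5, against 4.77, 4.50 and 4.63 on arrays labelled MEF, 4.50, 4.45 and 4.34 at passage 15 and 4.35, 4.48 and 4.37 in MES. It was above background at passage 5 alone and was at least 3.55-fold higher (adjusted p = 6.72e-09). Lamb1 had log2 intensities of 9.22, 9.12 and 9.83 at passage 5, against 7.67, 7.82 and 8.31 on arrays labelled MEF, 4.86, 4.48 and 4.85 at passage 15 and 4.62, 4.56 and 4.47 in MES, at least 9.98-fold higher (adjusted p = 8.17e-09). Lamb1 was above background on arrays labelled MEF and on none of passage 15 or MES. Lamc1 had log2 intensities of 11.66, 11.82 and 11.95 at passage 5, against 10.67, 10.66 and 10.43 on arrays labelled MEF, 10.51, 10.49 and 10.68 at passage 15 and 10.71, 10.70 and 10.68 in MES, a difference of 1.19 on the log2 scale (SE 0.10, adjusted p = 2.33e-06). Lamc1 was detected on every array, and the other groups lay close together at means of 10.59 for MEF, 10.56 at passage 15 and 10.70 in MES.

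Col4a1, a chain of type IV collagen, had log2 intensities of 12.80, 12.90 and 13.38 at passage 5, against 11.41, 11.78 and 12.68 on arrays labelled MEF, 9.44, 9.79 and 9.70 at passage 15 and 10.30, 9.79 and 10.12 in MES. Its difference was 2.47 on the log2 scale (SE 0.22, adjusted p = 4.53e-06). Col4a2, its partner chain, had log2 intensities of 12.74, 13.01 and 13.15 at passage 5, against 11.68, 12.07 and 12.48 on arrays labelled MEF, 10.65, 10.52 and 10.83 at passage 15 and 10.94, 10.69 and 10.88 in MES, a difference of 1.77 on the log2 scale (SE 0.15, adjusted p = 3.27e-06). Passage 5 replicate 1 of Col4a1 was close to MEF replicate 3, and MEF was the nearest group in both. The 2 genes lie head to head on chromosome 8 and their RefSeq windows (build GRCm38.p6) share 78 bases. The Col4a1 window, shown because the genes share it in part, lies at chr8:11312777-11313076 on the minus strand, and the Col4a2 window at chr8:11312555-11312854 on the plus strand. Neither held a GATA match.
Col4a1: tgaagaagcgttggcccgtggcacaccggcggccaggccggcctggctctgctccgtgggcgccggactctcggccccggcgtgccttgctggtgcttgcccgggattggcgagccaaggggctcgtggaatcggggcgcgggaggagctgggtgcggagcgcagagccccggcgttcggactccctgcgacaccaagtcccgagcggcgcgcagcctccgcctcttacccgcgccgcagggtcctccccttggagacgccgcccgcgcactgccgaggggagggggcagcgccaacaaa

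Other genes of the matrix and its assembly were above as well. Nid2, a nidogen that links laminin to collagen IV, differed by 1.05 on the log2 scale (SE 0.13, adjusted p = 6.83e-05), and by 0.98 without passage 5 replicate 3 and 0.99 without MEF replicate 3, both under 2-fold. P4ha2, a prolyl hydroxylase of collagen, differed by 2.34 on the log2 scale (SE 0.25, adjusted p = 1.70e-05) and Plod2, a lysyl hydroxylase, by 1.80 on the log2 scale (SE 0.16, adjusted p = 3.45e-06). Nid1 (0.23) and Hspg2, the proteoglycan perlecan (0.15), were not called. Sparc and Serpinh1, a collagen chaperone, were called higher (1.42 and 1.19) but did not lie above MEF. Pth1r, the receptor of parathyroid hormone related protein, whose signal promotes parietal endoderm formation in mouse cells, was at least 7.28-fold higher (adjusted p = 5.30e-08), and its other probe gave 1.30. Tfpi, an inhibitor of the tissue factor pathway, differed by 2.31 on the log2 scale (SE 0.13, adjusted p = 8.99e-08) and by 0.54 on its other probe. Thbd, thrombomodulin, was called higher but MEF stood above passage 5.

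Visceral endoderm products were called higher in 6 of 13 tested and lower in 0 (2 at an unadjusted p under 0.05), and all 6 lay above all other arrays (46.2% beside 2.96%), while the list median was 0.57, or 0.51 with bounds. Dab2, a clathrin adaptor needed for uptake in visceral endoderm, had log2 intensities of 10.92, 11.39 and 11.50 at passage 5, against 8.60, 8.90 and 9.50 on arrays labelled MEF, 7.82, 7.86 and 8.25 at passage 15 and 6.35, 6.61 and 6.52 in MES. The difference was 3.45 on the log2 scale (SE 0.18, adjusted p = 3.04e-08). Amn, amnionless, which carries the receptor cubilin to the cell surface, had log2 intensities of 10.07, 10.23 and 10.77 at passage 5, against 7.20, 6.99 and 6.48 on arrays labelled MEF, 8.45, 8.44 and 8.83 at passage 15 and 8.17, 7.77 and 8.07 in MES, a difference of 2.53 on the log2 scale (SE 0.18, adjusted p = 4.99e-07). Ttr, transthyretin, a carrier of thyroid hormone and a marker of visceral endoderm, had log2 intensities of 5.97, 6.22 and 6.58 at passage 5, against 4.63, 4.45 and 4.57 on arrays labelled MEF, 4.54, 4.44 and 4.44 at passage 15 and 4.42, 4.42 and 4.52 in MES, at least 2.25-fold higher (adjusted p = 3.21e-07). Dab2 was ordered passage 5, MEF, passage 15 and MES, with no overlap between them, whereas in Amn arrays labelled MEF were lowest. Ttr passed the detection filter through passage 5 alone, which favoured its place in the 46.2%.

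Spink1, a trypsin inhibitor, differed by 2.37 on the log2 scale (SE 0.18, adjusted p = 8.34e-07). Ihh, the hedgehog ligand of visceral endoderm, was at least 1.74-fold higher (adjusted p = 3.03e-05) and Mttp, which loads lipid onto apolipoprotein B, at least 1.5-fold higher (adjusted p = 1.59e-05). Mttp lost its call without passage 5 replicate 2 (1.00) or 3 (0.97) or MES replicate 1 (0.99). Afp, the fetal counterpart of albumin, did not pass the detection filter in any group. Genes of endocytosis and the lysosome were called higher in 5 of 17 and lower in 0 (also 0 at an unadjusted p under 0.05), all 5 above all arrays (29.4%), with a median of 0.79. Beside Dab2 and Amn these were Ctsh, a cathepsin, at least 4.76-fold higher (adjusted p = 5.97e-08), Ctsz, another cathepsin, by 1.88 on the log2 scale (SE 0.18, adjusted p = 8.58e-06) and 1.17 on its other probe, and Hexa, a lysosomal hexosaminidase, by 1.33 on the log2 scale (SE 0.12, adjusted p = 5.81e-06). Lrpap1, a chaperone of the receptors that visceral endoderm uses for uptake, differed by 1.67 on the log2 scale (SE 0.09, adjusted p = 6.18e-08) and by 1.59 on its other probe.

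Stomach and secretory genes were called higher in 3 of 10 and lower in 0 (1 at an unadjusted p under 0.05), all 3 above all arrays (30%), beside 4.8% of all genes called higher and 2.96% called and above. These were Gkn1, Gkn2 and Clu. Gkn1 and Gkn2 passed the detection filter through passage 5 alone, which favoured their place in this share, so nothing is read from it. Tff1 and Tff2, the trefoil factors that gastric mucous cells secrete with the gastrokines, did not pass the detection filter in any group. Definitive endoderm and gut genes were called in 0 of 13 by limma, with a median of 0.11, where 4 were higher and 2 lower at an unadjusted p under 0.05. Krt8, the keratin of simple epithelia, had the largest difference of these (0.92) and was higher in MES than at passage 5. Cdx1, the next in size, went the other way at −0.91 on the log2 scale (limma, adjusted p = 8.8e-05), under 2-fold. It was called lower without the MEF group (−1.31) and with scaling on the median of the tested genes (−1.41).

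Fibroblast growth factor genes moved in both directions. Of 16 tested, 3 were called higher and 1 lower, beside 4.8% and 1.72% of all genes. Above all arrays lay 1 (6.25% beside 2.96%), and the list median was 0.10, or −0.09 with bounds. At an unadjusted p under 0.05 in limma, 7 were higher and 6 lower. Fgf10, a ligand secreted by mesenchyme, had log2 intensities of 8.86, 9.04 and 9.39 at passage 5, against 7.29, 7.15 and 6.85 on arrays labelled MEF, 6.05, 5.46 and 6.39 at passage 15 and 6.53, 6.36 and 6.58 in MES. The difference was 2.58 on the log2 scale (SE 0.18, adjusted p = 4.30e-07), and 0.64 on its other probe. Fgf4, the ligand that epiblast cells make and primitive endoderm responds to, had log2 intensities of 5.29, 5.04 and 4.94 at passage 5, against 5.29, 5.30 and 4.92 on arrays labelled MEF, 7.87, 7.62 and 7.92 at passage 15 and 5.34, 7.43 and 7.06 in MES. It was called lower (−1.44 on the log2 scale (SE 0.31, adjusted p = 0.00266)), but the passage 5 arrays lay among those labelled MEF, and the lowest MES array was close to them at 5.34. Fgf4 was above background on 2 of 3 arrays in each of passage 5 and MEF. Fgfr2, a receptor of primitive endoderm, had log2 intensities of 8.43, 8.54 and 9.09 at passage 5, against 8.08, 8.40 and 9.19 on arrays labelled MEF, 5.88, 5.50 and 4.68 at passage 15 and 5.24, 4.99 and 4.92 in MES, a difference of 2.37 on the log2 scale (SE 0.26, adjusted p = 2.10e-05), with passage 5 and MEF overlapping and 0.24 on the other probe. Fgf15, a ligand that uses beta-Klotho, was called higher at 1.16 and was not above all arrays.

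In the Nodal and BMP list of 16, 2 were called higher, both above all arrays (12.5% beside 2.96% of all genes), and 1 lower. Over all genes 4.8% were called higher and 1.72% lower, which also stands beside the Wnt and retinoic acid counts below. Tdgf1, Cripto, the co-receptor of Nodal, had log2 intensities of 9.35, 9.30 and 9.78 at passage 5, against 8.27, 7.90 and 7.71 on arrays labelled MEF, 7.19, 7.98 and 8.26 at passage 15 and 7.57, 7.15 and 7.47 in MES. The difference was 1.76 on the log2 scale (SE 0.20, adjusted p = 3.35e-05). Id4, a target of BMP signalling, was at least 1.97-fold higher (adjusted p = 8.56e-05). Of 15 Wnt genes, 2 were called higher and 1 lower, with a median of −0.13. Dkk1, a secreted inhibitor of the pathway, was the member above all arrays, at least 1.57-fold higher (adjusted p = 2.02e-05), and lost its call without passage 5 replicate 3 (0.90) or passage 15 replicate 3 (0.99). It also lost the call in the authors' deposited values (0.61), with scaling on the median of the tested genes (0.55) and without the MEF group (0.98). Of 11 retinoic acid genes, 2 were called higher and 1 lower, with a median of 0.57, but 0.06 with bounds in place of unmeasured folds. Against MEF that median was 0.06 on chip 2 and −0.05 on chip 3. Tgm2, a transglutaminase, differed by 1.21 on the log2 scale (SE 0.12, adjusted p = 1.03e-05) and lay above all arrays.

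Genes of naive pluripotency were called higher in 3 of 20, beside 4.8% of all genes, and lower in 0, with a median of 0.35. At an unadjusted p under 0.05 in limma, 10 were higher and 3 lower. The 3 called were Tdgf1 and Sall4, which stood above all arrays, and Stat3 (1.10, and 0.76 on its other probe), which did not. Pou5f1, Oct4, had log2 intensities of 11.50, 11.67 and 11.05 at passage 5, against 11.85, 11.79 and 11.01 on arrays labelled MEF, 12.48, 12.56 and 12.80 at passage 15 and 12.63, 12.67 and 12.78 in MES, a difference of −0.88 on the log2 scale (SE 0.18, adjusted p = 0.00152) that did not reach 2-fold. Its other probe gave 0.21. Sox2 differed by 0.46 on the log2 scale (SE 0.16, adjusted p = 0.0345), with 1.55 on its other probe, which lay above all other arrays. Zfp42, Rex1, differed by 0.26 on the log2 scale (SE 0.17, adjusted p = 0.231). Klf4 was above all arrays but under 2-fold (0.93 on the log2 scale (SE 0.15, adjusted p = 4.66e-04)), with 0.82 and 0.60 on its other probes. Pou5f1, Sox2 and Zfp42 thus stayed detected on all 3 passage 5 arrays beside the endoderm genes.

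Germline genes were called higher in 2 of 9 and lower in 1, beside 4.8% and 1.72% of all genes. Rhox5, an X-linked homeobox gene that is active in extraembryonic cells, had log2 intensities of 11.27, 11.49 and 11.80 at passage 5, against 9.26, 9.07 and 8.43 on arrays labelled MEF, 9.93, 10.22 and 10.47 at passage 15 and 10.16, 9.66 and 9.89 in MES. The difference was 1.84 on the log2 scale (SE 0.18, adjusted p = 1.08e-05). Stra8, a gene of meiotic entry, was called higher at 1.19 (0.96 and not called without passage 5 replicate 3), but passage 15 stood above passage 5. Tfap2c, a factor of trophoblast and germ cells, differed by 1.36 on the log2 scale (SE 0.16, adjusted p = 4.72e-05), and its other probes gave 0.65 and 0.87.

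Glycolysis and hypoxia genes were called higher in 5 of 19 and lower in 0 (2 at an unadjusted p under 0.05), all 5 above all arrays (26.3% beside 2.96%), with a median of 0.80, or 0.32 and 0.56 against MEF on chips 2 and 3. Egln3, a prolyl hydroxylase that is induced by hypoxia, had log2 intensities of 9.29, 9.38 and 9.63 at passage 5, against 7.98, 8.12 and 8.58 on arrays labelled MEF, 6.05, 7.11 and 8.07 at passage 15 and 8.06, 7.91 and 8.36 in MES. The difference was 1.63 on the log2 scale (SE 0.30, adjusted p = 8.61e-04). Pfkl, phosphofructokinase, had log2 intensities of 12.13, 12.42 and 12.67 at passage 5, against 11.12, 10.93 and 10.94 on arrays labelled MEF, 10.83, 11.32 and 11.83 at passage 15 and 11.44, 11.01 and 11.48 in MES, a difference of 1.20 on the log2 scale (SE 0.18, adjusted p = 2.80e-04). In Egln3 the passage 15 arrays were spread widely, while the passage 5 arrays lay together above them. Ndrg1 differed by 1.77 on the log2 scale (SE 0.38, adjusted p = 0.0023), the glycolytic enzymes Aldoc by 1.58 on the log2 scale (SE 0.23, adjusted p = 1.97e-04) and Pgam1 by 1.54 on the log2 scale (SE 0.09, adjusted p = 1.37e-07).

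Further lists held 1 or 2 members each called and above all other arrays, beside 2.96% of all genes. In lipid uptake and transport, 2 of 12 were, Mttp and Fabp3, a fatty acid carrier that differed by 2.37 on the log2 scale (SE 0.13, adjusted p = 4.03e-08) although passage 15 was nearly as high (13.17 on average, against 13.71 at passage 5). Of 18 genes of antioxidant defence, 2 were, while 3 were called higher and 1 lower, beside 4.8% and 1.72% of all genes. The list median was −0.02, with 4 higher and 6 lower at an unadjusted p under 0.05 in limma. The 2 were Gpx3, a secreted glutathione peroxidase, which differed by 1.65 on the log2 scale (SE 0.14, adjusted p = 3.82e-06), and Mgst3, a microsomal glutathione transferase, by 1.48 on the log2 scale (SE 0.13, adjusted p = 4.46e-06), with 1.46 on its other probe. Of 17 interferon and antigen presentation genes, 2 were, Psmb9, a subunit of the immunoproteasome (1.57 on the log2 scale (SE 0.14, adjusted p = 4.06e-06)), and H2-K1, a class I antigen, at least 1.99-fold higher (adjusted p = 4.55e-04). Tjp1, a scaffold of tight junctions, differed by 1.62 on the log2 scale (SE 0.16, adjusted p = 1.16e-05), Hoxa7 by 1.62 on the log2 scale (SE 0.17, adjusted p = 1.49e-05) and 1.23 on its other probe, and Ddit4, a stress-induced inhibitor of mTOR, by 2.01 on the log2 scale (SE 0.23, adjusted p = 3.67e-05). Tjp1 was 1 of 13 epithelial genes tested, Hoxa7 1 of 15 Hox genes and Ddit4 1 of 12 ATF4 and serine synthesis genes. In the list of Ddit4, 3 were called higher and 1 lower, with 4 higher and 4 lower at an unadjusted p under 0.05 in limma. Cxcl16, a chemokine and 1 of 15 tested in its list, differed by 1.64 on the log2 scale (SE 0.12, adjusted p = 5.39e-07), but by 0.31 on its other probe, and the mean over probes was not called (0.98).

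Other lists showed calls with no such position. Ccnd3, cyclin D3, was called lower (−2.02 on the log2 scale (SE 0.23, adjusted p = 2.80e-05)), but its other probe gave 0.69 and the mean over probes was not called (−0.67). Ccna2, cyclin A2, was at least 2.65-fold higher (adjusted p = 4.35e-06), and in both passage 5 stood beside MEF. In the authors' deposited values Ccna2 was not called (0.93). Igf2, an imprinted growth factor, was called higher (1.68 on the log2 scale (SE 0.19, adjusted p = 3.35e-05)) with MEF far above passage 5 (means of 11.08 at passage 5 and 14.17 for MEF). Of 12 p53 targets limma called 0, with 0 higher and 2 lower at an unadjusted p under 0.05, and of 15 integrins and surface genes also 0, with 3 higher and 5 lower. Over all genes 6.52% were called either way, so in lists this short 0 is near that share and nothing is read from it.

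**Figure D4:**
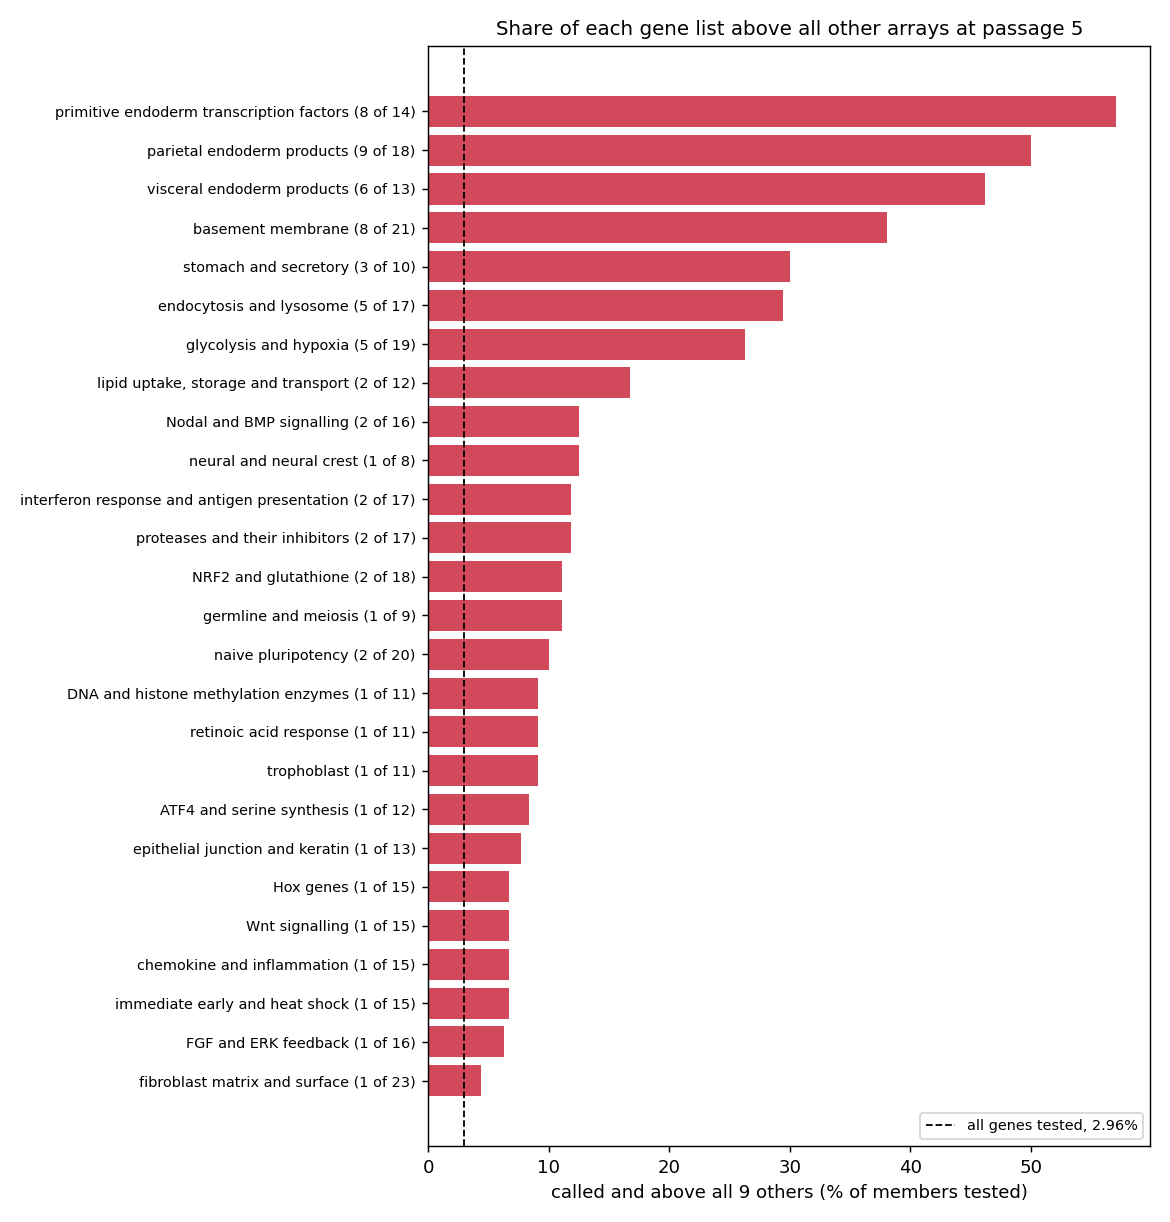
Each bar is a gene list with at least 1 member called and above all other arrays. Its length is the percentage of tested members that were, and the dashed line marks 2.96%, the share among all genes tested. Primitive endoderm transcription factors (57.1%), parietal (50%) and visceral endoderm products (46.2%) and basement membrane genes (38.1%) lead, and lists with no such member are not drawn.

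Differences were smaller in the 33 genes below all other arrays. Their median difference was −1.16, none reached 4-fold, and the median margin was 0.21, against 0.44 for the genes above. On passage 5 arrays their median level was 6.73, 6.67 and 6.34, against 7.89, 8.10 and 8.23 on arrays labelled MEF, 7.92, 7.74 and 8.07 at passage 15 and 7.66, 8.19 and 8.09 in MES. Replicate 3 was the lowest passage 5 array in 28. None of the gene lists had a member among them. Of the 14 with the largest margin below, 12 lost the call in the authors' deposited values, 11 with median scaling, 5 with the mean over probes and 5 without the MEF group. Without passage 5 replicate 3, Dync1li2 (−0.97), Myl12a (−0.80), Pfn1 (−0.80) and Tnk2 (−0.98) were under 2-fold, and Myl12a, Pfn1 and Tnk2 also lost the call without some single arrays of the other groups, as did Tnk2 without passage 5 replicate 1 (−0.96). None of the 14 with the largest margin above lost its call in any of these settings. Their choice by large margins on the same arrays favoured that, so nothing is read from it.

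Of the 14 genes with the largest margin below, 2 were also called lower against each other group, and the rest passed against the mean of the groups. Actc1, cardiac actin, had log2 intensities of 4.94, 4.85 and 4.99 at passage 5, against 8.50, 8.97 and 9.58 on arrays labelled MEF, 5.67, 5.92 and 6.03 at passage 15 and 5.84, 5.57 and 5.90 in MES. The difference was −1.96 on the log2 scale (SE 0.18, adjusted p = 4.77e-06). Pfn1, profilin, which controls actin assembly, had log2 intensities of 11.01, 10.98 and 10.34 at passage 5, against 11.73, 11.97 and 11.43 on arrays labelled MEF, 11.85, 11.39 and 11.62 at passage 15 and 11.89, 12.20 and 12.04 in MES, a difference of −1.01 on the log2 scale (SE 0.16, adjusted p = 3.69e-04). Myl12a, a regulatory light chain of myosin, differed by −1.0 on the log2 scale (SE 0.15, adjusted p = 2.30e-04). Mef2c, a factor of muscle, and Smyd1, a muscle methyltransferase, differed by −1.22 on the log2 scale (SE 0.16, adjusted p = 8.15e-05) and −1.23 on the log2 scale (SE 0.15, adjusted p = 4.02e-05), though their other probes gave −0.30 and −0.10. In Actc1 the MEF arrays stood far above passage 15 and MES as well, and in Pfn1 all 3 other groups lay together. Actc1 gave −1.91 on its other probe and was above background on 2 of the 3 passage 5 arrays.

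Pmepa1, a feedback inhibitor of TGF-beta signalling, had log2 intensities of 7.24, 7.26 and 6.93 at passage 5, against 7.99, 8.36 and 8.39 on arrays labelled MEF, 8.31, 8.14 and 8.39 at passage 15 and 8.36, 8.34 and 8.43 in MES. The difference was −1.16 on the log2 scale (SE 0.12, adjusted p = 1.08e-05), and −0.80 on its other probe. Itm2a, a type II membrane protein, had log2 intensities of 5.11, 5.13 and 4.84 at passage 5, against 6.05, 6.44 and 6.08 on arrays labelled MEF, 6.43, 6.34 and 6.60 at passage 15 and 5.73, 7.33 and 7.12 in MES, a difference of −1.43 on the log2 scale (SE 0.25, adjusted p = 7.08e-04). Itm2a was above background on 2 of the 3 passage 5 arrays, and its lowest other array was 1 of MES. Both genes were called lower against each of the other groups. Pcolce, which enhances the processing of procollagen, had log2 intensities of 9.11, 9.18 and 8.90 at passage 5, against 9.84, 9.94 and 9.90 on arrays labelled MEF, 10.06, 10.01 and 9.98 at passage 15 and 10.70, 10.46 and 10.63 in MES, a difference of −1.10 on the log2 scale (SE 0.09, adjusted p = 3.39e-06). Synpo2l differed by −1.13 on the log2 scale (SE 0.12, adjusted p = 2.14e-05) and −0.80 on its other probe, Dync1li2, a light intermediate chain of dynein, by −1.08 on the log2 scale (SE 0.10, adjusted p = 9.53e-06), and Pea15a, a protein that binds ERK kinases, by −1.23 on the log2 scale (SE 0.20, adjusted p = 4.26e-04).

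Cavin1, a coat protein of caveolae, was above background on no passage 5 array and was at least 2.34-fold lower (adjusted p = 1.21e-04). Tnk2, a kinase, differed by −1.0 on the log2 scale (SE 0.13, adjusted p = 7.61e-05) and Usp9x, a deubiquitinase, by −1.14 on the log2 scale (SE 0.15, adjusted p = 9.42e-05), with −0.32 on its other probe. Myc, the growth regulator, had log2 intensities of 5.33, 5.52 and 4.87 at passage 5, against 6.12, 6.18 and 5.73 on arrays labelled MEF, 6.42, 6.40 and 6.58 at passage 15 and 6.34, 7.06 and 6.76 in MES, a difference of −1.16 on the log2 scale (SE 0.17, adjusted p = 1.76e-04). It was under 2-fold without passage 5 replicate 3 (−0.97).

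**Figure D5:**
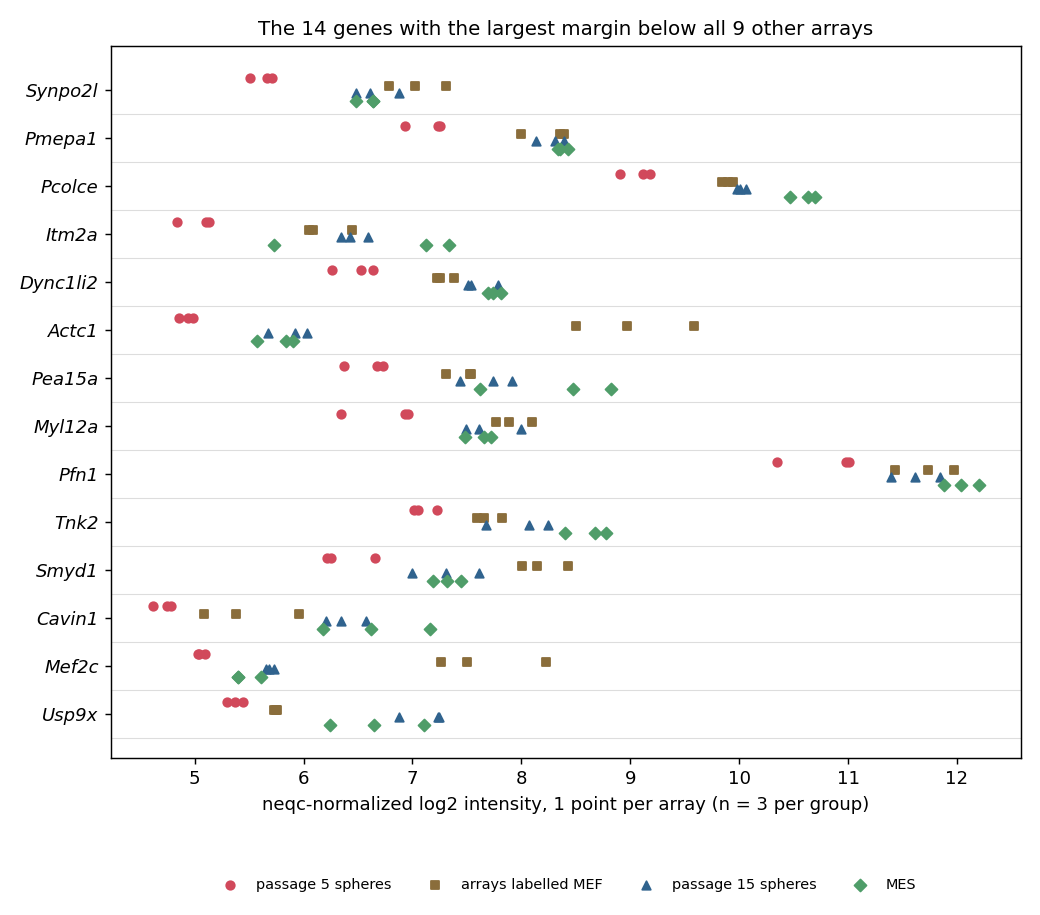
Each row is one of the 14 genes with the largest margin below all other arrays and each point is an array, on a horizontal axis of normalized log2 intensity, with passage 5 as red circles, MEF as brown squares, passage 15 as blue triangles and MES as green diamonds. The passage 5 points stand to the left of all others in every row, but the gaps are narrower than in the genes above.

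In the list of fibroblast matrix and surface genes, 3 of 23 were called higher and 5 lower, beside 4.8% and 1.72% of all genes. Only Pdgfra lay above all arrays (4.35% beside 2.96% of all genes). The list median was 7.92, 7.24 and 5.82 on passage 5 arrays, against 10.21 for MEF, 4.97 for passage 15 and 5.37 for MES. Col1a1, type I collagen, differed by −1.16 on the log2 scale (SE 0.34, adjusted p = 0.0149) in the contrast, yet by 1.38 without the MEF group, −0.56 (not called) without passage 5 replicate 3, −1.63 without passage 5 replicate 1 and −0.64 (not called) with median scaling. Passage 5 lay between MEF and the other groups. Contractile genes were called in 0 of 11 by limma (median −0.45, 2 higher and 4 lower at an unadjusted p under 0.05), beside 6.52% of all genes called either way. Their list median was 7.62, 7.12 and 6.14 on passage 5 arrays, against 10.81 for MEF, 5.4 for passage 15 and 6.01 for MES. Against MEF their median difference was −2.36 on chip 2 and −4.34 on chip 3, so the 0 calls hold only against the mean of the groups. Thy1 differed by −0.65 on the log2 scale (SE 0.50, adjusted p = 0.3), with 0.38 without passage 5 replicate 3 and −1.34 without replicate 1.

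Markers of other cell types were measured beside these results. The endoderm markers averaged 8.71 to 9.08 on the passage 5 arrays, against 6.99 to 7.27 on arrays labelled MEF, 6.30 to 6.50 at passage 15 and 6.24 to 6.32 in MES, with 12 of 14 called higher. Above background on all 3 arrays were 14 at passage 5, 10 for MEF, 8 at passage 15 and 9 in MES. Some, such as Sox17 and Lama1, passed the filter through passage 5 alone, which favoured a high average there. Fibroblast markers averaged 5.55 to 7.35 at passage 5, 9.89 to 11.02 on arrays labelled MEF, 4.77 to 4.92 at passage 15 and 6.27 to 6.36 in MES, and 5 of 8 were above background on all 3 passage 5 arrays. Their part in the results was not tested. Stomach markers averaged 8.70 to 8.99 at passage 5, against 5.41 to 6.05 across the other arrays, but 2 of the 3 tested members passed the filter through passage 5 alone, so this average was bound to be high there. Endothelial markers averaged 6.67 to 7.02 at passage 5, against 5.43 to 5.82 for MEF, 6.63 to 6.78 at passage 15 and 6.17 to 6.30 in MES, and trophoblast markers 6.59 to 6.81, against 6.19 to 6.82 across the other arrays. Of the macrophage and blood markers, Ptprc, Lyz2 and Hba-a1 passed the detection filter in no group. Fcgr3, an Fc receptor of macrophages and the one tested gene of the macrophage and blood list, had log2 intensities of 6.0, 6.34 and 6.85 at passage 5, against 4.61, 4.69 and 4.54 on arrays labelled MEF, 6.08, 6.38 and 6.17 at passage 15 and 5.07, 5.31 and 4.76 in MES. It was called higher than the mean of the groups (1.11 on the log2 scale (SE 0.16, adjusted p = 1.97e-04)), overlapped passage 15, and was not called without passage 5 replicate 3 (0.88).

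Of the genes above, 63 had other kept probes, 70 in all. Of these probes 41 gave a difference of the same sign, 26 stood above all other arrays too and 29 gave the opposite sign, with a median of 0.45 against 1.32 for the probes used. For 16 of the genes below, 13 of 17 other probes gave the same sign. At the edge of the rule, the nearest genes inside were Mllt10 (margin 0.0002) and Nop53 (0.0176) above and 1810009A15Rik (0.0035) and Suclg1 (0.0185) below, and the nearest outside were Ramp2 (−0.0021) and Ywhae (−0.0029) above and Mfap5 (−0.0037) and Ctps2 (−0.0096) below.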

How the data were processed

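Transcript levels were measured on 12 Illumina bead arrays, 3 per group, grouped by their titles. The deposited raw table holds a bead intensity per probe, not normalized between arrays, with a detection p-value per probe, per the file headers. A further table by the authors holds normalized log2 values, equal to those of the series matrix (largest difference 0). Which software and background step made these values was not given in the sources used here.

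Of 46657 probes, 20 with a value that a spreadsheet had changed to a date were dropped. Background correction and quantile normalization used neqc (limma 3.58.1, R 4.3.3, offset 16, background from detection p). Probes were kept at a detection p under 0.05 on every array of 1 or more groups (19444 probes, 12156 with a gene), and a gene was read by its brightest kept probe, giving 9343 genes. Gene symbols came from the platform annotation, where 22380 probes had 1 symbol, 0 several and 24277 none, and all 22380 matched RefSeq. The 7288 kept probes without a gene are not analysed here. The number of arrays limits the precision.

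One mean per group was fitted with limma (lmFit, contrasts.fit, eBayes without trend, 8 residual and 4.98 prior degrees of freedom), with Benjamini-Hochberg adjustment over all genes. The fit recovered planted differences in simulated data with independent noise on each array. These data held no chip effect, normalization or detection filter, so they check the fit alone. SE is from this model. Named genes were the 14 with the largest margin on each side, up to 4 members per gene list that were called and apart (or the 2 largest differences where none was), and 12 genes named in any case: Pou5f1, Sox2, Zfp42, Klf4, Myc, Col1a1, Thy1, Sox17, Gata6, Gata4, Sox7 and Pdgfra. Further genes, such as Col4a1, Col4a2, Hnf4a, Foxa2, Nid1, Nid2, P4ha2, Hspg2, Sparc, Serpinh1, Thbd, Ihh, Lrpap1, Hexa, Fgf4, Fgfr2, Stat3, Stra8, Pgam1 and Snurf, were chosen after their values were seen. Members, rule and lists were chosen with earlier results of these data known. Alternatives were other scalings, the authors' values, filters, probe averaging, chip and replicate blocks and each array left out.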

Additional observations from a re-analysis of the deposited data

How the results depend on the processing

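Counts are given in the order called higher, called lower, called and above, called and below, called higher against each group and called lower against each group, which were 448, 161, 277, 33, 111 and 3. They were 253, 72, 177, 8, 73 and 1 in the authors' deposited values, 1800, 24, 1300, 4, 389 and 0 with median scaling (limma, also 0 at an unadjusted p under 0.05 in all 3 comparisons, with 2-fold kept), and 2104, 2303, 800, 363, 535 and 142 with no fold threshold. Added after the data were seen, scaling on the median of tested genes gave 323, 685, 208, 284, 84 and 38, and leaving out MEF gave 847, 431, 784 and 373 for the first 4. Without 1 replicate each, the ranges were 403 to 495, 98 to 217, 245 to 339, 22 to 100, 88 to 129 and 2 to 11. Called and below rose to 100 without MEF replicate 3, 61 without passage 5 replicate 1 and 70 without passage 5 replicate 2, and called lower was 98 without passage 5 replicate 3; the cause was not tested. The stricter detection filter, no filter, the mean over probes and chip as a random block kept each count within 1.5 times. The chip block cannot part chip from group against passage 15 and MES, whose chip held no passage 5 array. Same-numbered arrays of passage 5 and MEF correlated at 0.0414, 0.272 and 0.138 in their deviations, each best with its own number, and those with passage 15 and MES at −0.0595 to 0.202, so the numbers were not taken as pairs. With the replicate number as a block the counts were 448, 161, 277, 33, 111 and 3. Of the named genes' values under alternatives, 2806 kept their direction and their side of the threshold, called or not, 121 lost the call, 53 gained it and 9 turned their sign. These were Acta1 (0.92), Actg2 (1.35), Col1a1 (1.38), Prrx1 (0.70) and Thy1 (0.82) without MEF, Thy1 (0.38) without passage 5 replicate 3 (its range without 1 replicate each was −1.34 to 0.38), Eif1a (0.12) and Pmaip1 (0.078) with median scaling, and Hspg2 (−0.052) with scaling on the tested genes. Members called and above ranged from 7 to 11 for primitive endoderm factors, 8 to 13 for parietal and 4 to 8 for visceral products.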

Other observations

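Some genes above belonged to none of the lists and are named here after their values were seen, with no theme implied. Aqp8, a water channel, was at least 7.77-fold higher (adjusted p = 2.64e-07), Car12, a carbonic anhydrase, at least 4.85-fold higher (adjusted p = 6.62e-06), and Habp2, a plasma protease, at least 3.89-fold higher (adjusted p = 2.73e-06). A2m, a protease inhibitor, was at least 3-fold higher (adjusted p = 1.04e-07). Podxl, a sialomucin of apical membranes, differed by 2.04 on the log2 scale (SE 0.18, adjusted p = 3.48e-06) and Hkdc1, of the hexokinase family, by 2.35 on the log2 scale (SE 0.12, adjusted p = 3.04e-08). All were called higher against each of MEF, passage 15 and MES.

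Of the 277 genes above, 18 formed 9 pairs of neighbours in RefSeq gene order: Brca1 and Nbr1, Myo10 and Retreg1, Add3 and Mxi1, Tpd52 and Zbtb10, S100a1 and S100a13, Gkn1 and Gkn2, Col4a1 and Col4a2, Ttk and Bckdhb, and Pth1r and Myl3. This is a count with no test.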
